A study of Mus musculus with 16 samples.

Results

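The adrenergic receptors are the cell-surface receptors for noradrenaline and adrenaline. The 8 genes Adra1a, Adra1b, Adra1d, Adra2a, Adra2b, Adra2c, Adrb1 and Adrb3 were taken by symbol from a count table of 54838 genes, and each symbol was found once. They were chosen because the spleen receives sympathetic nerve fibres. RNA had been sequenced in 16 samples of C57BL/6 mouse spleen, 8 of whole spleen and 8 of cells kept back on a strainer after the organ had been minced, digested with enzymes and cleared of red cells by lysis. The second group is called size-selected here, and its labelled source is spleen glia. All samples share the strain, no genotype or treatment separates the groups, and an age is not given in the sources used here. The labels give the same 8 numbers to both groups (407, 408, 427 and 435 male; 436, 445, 447 and 460 female). They do not say that a number is an animal, so p-values measure the spread between these samples.

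Adrenergic receptors are G protein-coupled receptors of 3 classes. The alpha-1 receptors act mainly through Gq and G11 proteins and phospholipase C, which release calcium and contract smooth muscle; the alpha-2 receptors act through Gi and Go proteins and lower cyclic AMP, and on nerve endings they restrain noradrenaline release; the beta receptors act through Gs and raise cyclic AMP. In the spleen, sympathetic fibres follow the arteries, the trabeculae and the capsule into the white pulp, and noradrenaline contracts the capsule and vessels and acts on immune cells.

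Library totals ran from 13119992 to 19944440 estimated counts in the size-selected group and from 12153770 to 16282454 in whole spleen. Markers of several cell types, not of glia alone, were higher in the size-selected libraries. The summed CPM (read counts relative to library size, on totals scaled by edgeR's TMM method) of 6 glial markers ran from 65.1 to 466 there and from 0.621 to 2.85 in whole spleen. The sum of 6 smooth muscle markers ran from 767 to 3653 against 8.41 to 69.4, that of 6 fibroblast markers from 1001 to 3477 against 4.66 to 55.5, and that of 6 endothelial markers from 535 to 1356 against 72.7 to 168. All 6 smooth muscle, 4 pericyte, 6 fibroblast, 6 endothelial and 5 mesothelial markers were called higher in the size-selected group, as were the 5 glial markers tested. The sum of 4 pericyte markers ran from 190 to 563 against 9.47 to 18.6, and that of 5 mesothelial markers from 19.5 to 173 against 0.381 to 3.01. All 5 megakaryocyte and platelet markers were called higher too, with overlapping sums of 89.2 to 616 and 53.9 to 195. Of 5 macrophage markers, Csf1r (log2 fold change 1.92) and Adgre1 (0.58) were called higher and the other 3 were not called. With the number as a block, Cd5l was called higher too (edgeR adjusted p = 0.0285). The sum of the 5 macrophage markers was higher in 8 of 8 pairs, from 1361 to 3007 against 786 to 1371. All 4 B cell markers were called lower, with sums from 645 to 2418 against 3488 to 4999. So were 3 of 4 T cell markers (126 to 254 against 285 to 438), 4 of 5 neutrophil markers (92.0 to 495 against 375 to 1151) and 1 of 4 erythroid markers (60.6 to 2435 against 193 to 9124). The remaining T cell marker, Cd4, was higher in 7 pairs and not called (log2 fold change 0.30). With the number as a block, all 4 erythroid markers were called lower. The block also called Mpo, a neutrophil marker, lower (edgeR adjusted p = 0.0171) and Cd4 higher (edgeR adjusted p = 0.0371). The 1 erythroid call without the block, Hbb-bs, was lost with the column constants described below divided out (edgeR adjusted p = 0.0554). The T cell, neutrophil and erythroid sums were lower in 8 of 8 pairs. Among markers of sympathetic neurons, Th, the enzyme that starts noradrenaline synthesis, had no count in any of the 16 samples. Dbh, Phox2a and Slc6a2 had no count in whole spleen, and none exceeded 1.03 CPM in a size-selected sample. Phox2a was counted in 8 of 8 size-selected samples and Slc6a2 in 7. Ddc, an enzyme of amine synthesis, had a mean of 0.315 CPM in the size-selected group and 0.449 in whole spleen. Slc18a2 passed the count filter, and its difference was not called (log2 fold change -0.11, adjusted p = 0.668). In bulk RNA, fewer cells of a type and less RNA per cell cannot be told apart.

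RNA of 7 of the 8 receptors was higher in the size-selected sample than in the whole spleen sample of the same number in 8 of 8 pairs. Adrb3 was higher in 4 pairs and at 0 in both samples of the other 4. In 5 genes (Adra1a, Adra1b, Adra2a, Adra2b and Adra2c) the lowest size-selected sample lay above the highest whole spleen sample, as it did for 13.6% of the 28235 genes with any count. Adra1a, Adra1b, Adra2a and Adrb1 were abundant enough for the count filter, and edgeR's quasi-likelihood test called each of the 4 higher at an adjusted p under 0.05, beside 37.5% of the 14510 genes tested. Adra1a, Adra1b and Adra2a had at most 8 counts in any whole spleen sample and passed the filter through the size-selected samples, so that this count gives no support. Adra1d, Adra2b, Adra2c and Adrb3 stayed outside the filter. A fit without a filter called all 8 higher, beside 25.3% of 28235 genes, and is the source of the values given for those 4. The differences lie beside the higher smooth muscle, pericyte, fibroblast, endothelial, glial, mesothelial, megakaryocyte and macrophage markers and the lower lymphocyte, neutrophil and erythroid markers given above, whose part in them was not tested.

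**Figure D1:**
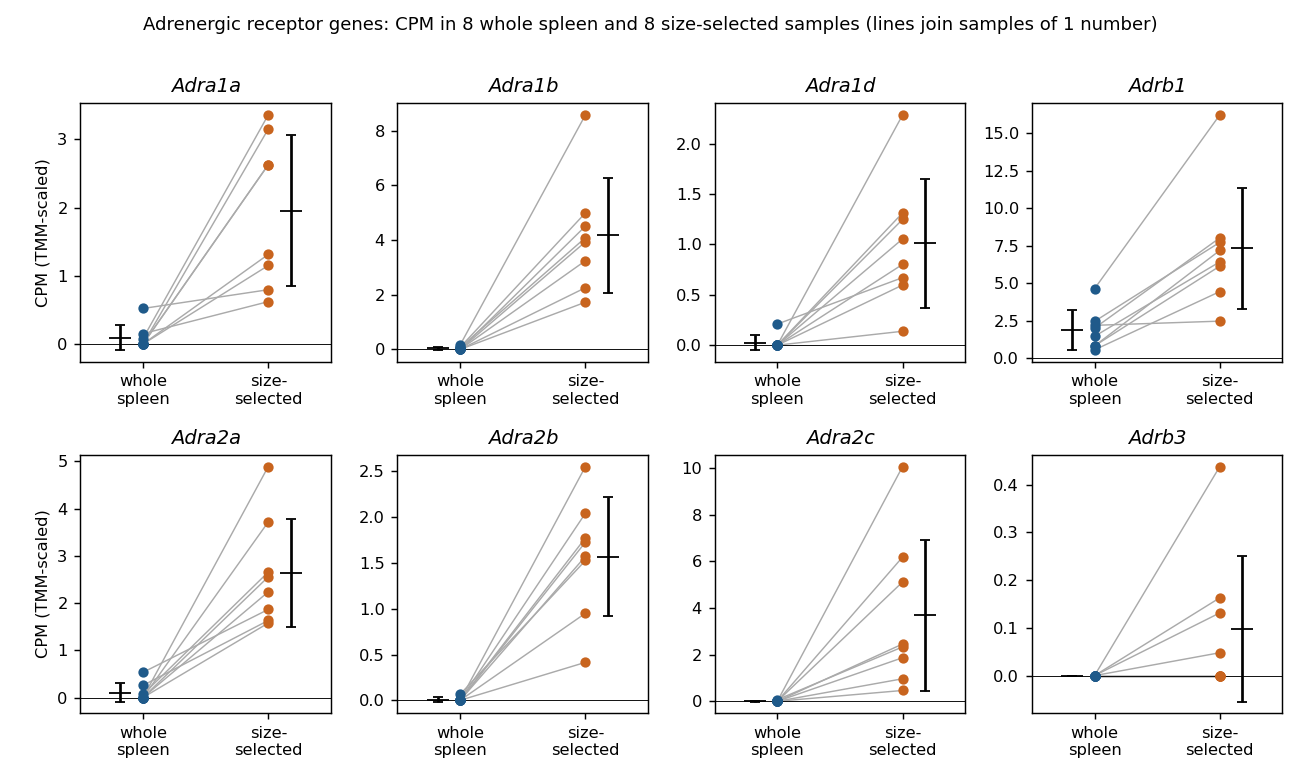
CPM (TMM-scaled) of the 8 receptor genes in 8 whole spleen samples (blue) and 8 size-selected samples (orange), on an axis of its own for each gene; grey lines join the samples of 1 number and black marks show the mean and SD. The lines of 7 genes rise in 8 of 8 pairs, and Adrb1 is the gene detected in each whole spleen sample, from 0.574 to 4.64 CPM.

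Among the alpha-1 receptors, Adra1b had the highest level per exon length in the size-selected group. Its level there ran from 1.73 CPM in sample 408 through a median of 4.01 to 8.57 in sample 427. In whole spleen, 5 samples had no count and the highest, 427, had 0.163 CPM from 2 counts. The groups did not overlap, with means of 4.17 ± 2.10 and 0.0386 ± 0.0601 CPM (SD, n = 8). The log2 fold change between them was 6.56 (SE 0.55, edgeR adjusted p = 7.12e-09). Summed over samples, 534 estimated counts stood against 4, a ratio of 115 after scaling for depth (95% exact interval 44.8 to 425). Such intervals cover counting error only. The gene lies at chr11:43774606-43901210 on the minus strand of GRCm38 and has 4 annotated transcripts.

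Adra1a, the alpha-1A receptor, had its lowest size-selected level in sample 408 (0.622 CPM), a median of 1.97 and its highest level in sample 427 (3.36). In whole spleen, 5 samples had no count, samples 427 and 408 had 1 and 2, and sample 447 had 8 (0.521 CPM). The groups came close to each other without overlapping. The log2 fold change was 4.22 (SE 0.68, edgeR adjusted p = 2.23e-05), between means of 1.96 ± 1.10 and 0.0944 ± 0.181 CPM (SD, n = 8). A single whole spleen library, 447, held 8 of the 11 counts of that group, and without number 447 the log2 fold change was 5.71 in a fit without a filter. The gene lies at chr14:66635251-66771168 on the plus strand.

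Adra1d, the alpha-1D receptor, known for the contraction of arteries, was low in both groups. Size-selected values ran from 0.138 CPM in sample 408 through a median of 0.929 to 2.29 in sample 427. In whole spleen, sample 435 had 3 counts (0.210 CPM) and the other 7 had none, so that the groups overlapped at sample 408. The ratio of summed counts was 37.8 (95% exact interval 12.6 to 185), and without a filter the fitted log2 fold change was 4.82 (SE 0.77, adjusted p = 1.95e-05). Without number 435 that value was 6.98. In the size-selected columns the deposited values of Adra1d are whole counts multiplied by a constant per column between 0.659 and 0.789. With the constants divided out the log2 fold change was 5.23. Adra1d (chr2:131545850-131562283, minus strand) overlaps the antisense gene Gm14285. Reads of the pair cannot be told apart where counting ignores strand, and Gm14285 had at most 1 count in any sample.

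RefSeq promoter windows were held for 5 of the 8 genes (Adra1b, Adra2a, Adra2b, Adra2c and Adrb1), with 2 starts for Adra1b. The 250 bases before the RefSeq start are printed for 1 gene of each class, each of which was called higher: Adra1b, Adra2b and Adrb1. None of these bases lies in an exon of its gene in GENCODE M21. The windows of Adra2a and Adra2c are not printed, because 250 and 247 of their bases lie in such exons, so that the annotations place the starts differently. Bases are given 5′ to 3′ on the gene's strand (GRCm38.p6). Capitals mark matches on either strand to the GC box GGGCGG, the one searched motif found in them.

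Adra1b promoter, chr11:43901238-43901487, minus strand: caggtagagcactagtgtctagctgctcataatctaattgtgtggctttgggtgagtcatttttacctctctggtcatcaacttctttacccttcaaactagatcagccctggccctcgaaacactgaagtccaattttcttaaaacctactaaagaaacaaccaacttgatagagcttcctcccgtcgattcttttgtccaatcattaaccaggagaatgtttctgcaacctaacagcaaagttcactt
Adra1b promoter, chr11:43836490-43836739, minus strand: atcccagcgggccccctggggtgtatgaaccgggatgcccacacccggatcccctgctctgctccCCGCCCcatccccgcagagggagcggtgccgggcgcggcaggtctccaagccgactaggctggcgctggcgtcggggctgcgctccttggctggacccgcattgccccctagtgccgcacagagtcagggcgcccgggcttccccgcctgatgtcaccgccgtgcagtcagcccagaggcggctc
Adra2b promoter, chr2:127362929-127363178, plus strand: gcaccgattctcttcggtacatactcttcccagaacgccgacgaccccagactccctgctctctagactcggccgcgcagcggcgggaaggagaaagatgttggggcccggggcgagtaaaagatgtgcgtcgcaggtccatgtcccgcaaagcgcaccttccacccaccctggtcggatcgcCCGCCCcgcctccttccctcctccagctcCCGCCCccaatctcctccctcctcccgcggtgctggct
Adrb1 promoter, chr19:56721867-56722116, plus strand: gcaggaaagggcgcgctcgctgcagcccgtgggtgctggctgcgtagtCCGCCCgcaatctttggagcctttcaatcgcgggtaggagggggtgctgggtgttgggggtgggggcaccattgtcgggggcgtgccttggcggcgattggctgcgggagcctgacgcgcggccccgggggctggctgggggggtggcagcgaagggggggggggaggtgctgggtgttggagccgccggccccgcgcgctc

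The Adra1b windows differ in base composition, with 41.6% G and C before the upstream start and 72.8% before the downstream one; the median of all 32851 windows was 52.4%. The GC box was found in 4 of the 6 windows, 2 times in that of Adra2b and once each in those of Adra2a, Adrb1 and the downstream start of Adra1b, and in 32.7% of all windows of this length. The E-box CANNTG, which reads the same on both strands, was found 2 times in the Adra2c window and once in that of Adra2a, and in 66.2% of all windows. Adra2a also had a TATA box (TATAAA, in 12.4%). The cyclic AMP response element TGACGTCA (in 1.55% of windows) and the SRF CArG box (in 1.47%) were not among the letters of the 6 windows. These matches describe the letters only. The counts per gene do not say which start was used.

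Of the alpha-2 receptors, Adra2c showed the widest spread among the size-selected samples. It had 0.465 CPM in sample 447, a median of 2.40 and 10.1 in sample 427. In whole spleen a single count in sample 445 was all that was found, against 469 estimated counts in the size-selected group, a ratio of 405 (95% exact interval 72.4 to 16049). The groups did not overlap, and without a filter the fitted log2 fold change was 7.71 (SE 0.82, adjusted p = 5.63e-08). Without number 445, which holds the whole spleen count, it was 8.86. Adra2c has a single exon at chr5:35278319-35281763 on the plus strand.

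Adra2a, the alpha-2A receptor and the main autoreceptor of noradrenergic nerve endings, was found in every size-selected sample. Its values there ran from 1.58 CPM in sample 407 through a median of 2.40 to 4.89 in sample 436. Adra2a and Adra2b were highest in sample 436, where the 3 alpha-1 genes, Adra2c and Adrb1 were highest in sample 427. Sample 436 had the highest glial (466), fibroblast (3477) and megakaryocyte (616) marker sums of the size-selected group. Number 436 also stood apart for 5 pancreas markers, with sums of 2.72 CPM in the size-selected and 8.25 in the whole spleen sample, against at most 0.292 in any other sample. The part of these markers in the Adra2a and Adra2b levels was not tested, and without number 436 the log2 fold changes were 4.15 and 6.23. Whole spleen had 12 counts in all, with 7 in sample 408, 4 in sample 460, 1 in sample 447 and none elsewhere. The groups did not overlap, with means of 2.64 ± 1.14 and 0.107 ± 0.194 CPM (SD, n = 8). The fitted log2 fold change was 4.52 (SE 0.61, edgeR adjusted p = 3.11e-06). Without number 408 it was 5.57. The gene lies at chr19:54044151-54048982 on the plus strand.

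Adra2b, the alpha-2B receptor, known in vascular smooth muscle, ran from 0.414 CPM in sample 408 through a median of 1.65 to 2.55 in sample 436. Whole spleen held 1 count, in sample 447. The ratio of summed counts was 178 (95% exact interval 31.6 to 7068), and without a filter the fitted log2 fold change was 6.48 (SE 0.64, adjusted p = 1.96e-08). Without number 447 it was 7.56. The groups did not overlap. The gene is a single exon at chr2:127363208-127367221 on the plus strand.

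Adrb1, the beta-1 receptor, known from the heart, was the one receptor with counts in every whole spleen sample, where each sample had 8 to 57 counts. Whole spleen ran from 0.574 CPM in sample 436 through a median of 1.75 to 4.64 in sample 427. The size-selected group ran from 2.49 CPM in sample 408 through a median of 6.82 to 16.2 in sample 427. The groups overlapped, because whole spleen 427 (4.64) lay above size-selected samples 408 (2.49) and 436 (4.45). Within every number the size-selected sample was the higher one. Means were 7.34 ± 4.03 and 1.88 ± 1.32 CPM (SD, n = 8), and the log2 fold change was 1.96 (SE 0.41, edgeR adjusted p = 0.000302). The ratio of summed counts was 3.92 (95% exact interval 3.37 to 4.59). Number 427 was the highest in both groups. Its whole spleen library also had the highest smooth muscle (69.4), fibroblast (55.5), endothelial (168), pericyte (18.6), glial (2.85), mesothelial (3.01) and macrophage (1371) sums of that group. Its megakaryocyte sum was not the highest. Without number 427 the log2 fold change was 2.03. The gene lies at chr19:56722199-56733113 on the plus strand.

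Adrb3, the beta-3 receptor known from adipose tissue, was near the limit of detection. The 12 counts of the size-selected group came from samples 445 (6), 436 (3), 407 (2) and 460 (1), and the other 4 samples had none. Whole spleen had no count in any sample. The size-selected mean, 0.0975 CPM, is itself below the level of 3 counts in a library (0.192 to 0.244 CPM in whole spleen), so no fold is given. The fit without a filter called it (adjusted p = 0.0212), but with the number as a block the adjusted p was 0.133, and without number 445 it was 0.0624. Adipocyte markers were equally sparse, since 5 of them summed to at most 0.760 CPM in any size-selected sample and 0.385 in any of whole spleen. Adrb3 (chr8:27225776-27250616, minus strand) overlaps the antisense gene Gm45470, which had at most 1 count in any sample.

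The authors' deposited table lists 2201 genes, beside 54838 in the count table. It starts at a log2 fold change of 3.50 and has no DESeq adjusted p above 0.00995. It holds 6 of the 8 receptors and neither Adrb1 nor Adrb3. Its log2 fold changes run from 4.24 for Adra1a to 7.79 for Adra2c in the authors' deposited table. In the same authors' deposited table the mean TPM, a level corrected for length and depth, of Adra1b was 2.16 in the size-selected group and 0.0188 in whole spleen.

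Levels can be compared between genes only per length, for which CPM was divided by the length of each gene's annotated exons in kb. On that scale the size-selected order was Adrb1 (2.17 ± 1.19 CPM per kb, SD, n = 8), Adra1b (1.23 ± 0.620), Adra2c (1.07 ± 0.941), Adra2a (0.546 ± 0.236), Adra1d (0.534 ± 0.337), Adra2b (0.391 ± 0.162), Adra1a (0.224 ± 0.126) and Adrb3 (0.0289 ± 0.0450). Adrb1 exceeded Adra1b by more than the SD of the paired difference and was the higher of the pair in 7 of 8 samples. The level of Adra2b lay above that of Adra1a by the same measure in 7 samples, and the level of Adra1a above that of Adrb3 in 8. The neighbours from Adra1b down to Adra2b did not differ by more than that spread. Sample 436 was the exception at the top, with Adra2c first, Adra1b next and Adrb1 after them. The order rests on the lengths used, which for Adra1a was 8728 bases over 6 annotated transcripts. In the authors' deposited table the mean size-selected TPM ran the other way for Adra1a (0.661) and Adra2b (0.494). It also did so for Adra1d (0.984) and Adra2a (0.869). The Adra1d level given here uses the deposited values, which carry the column constants.

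**Figure D2:**
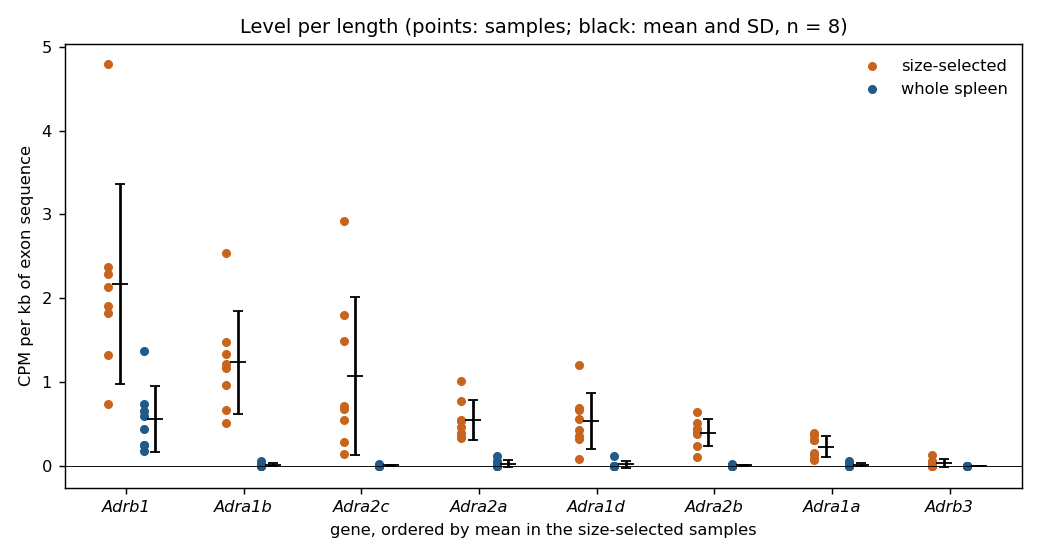
Level per length of the 8 genes in CPM per kb of exon sequence, ordered by the mean of the size-selected group; points are samples (orange size-selected, blue whole spleen) and black marks the mean and SD of 8. Adrb1 has the highest mean in both groups (2.17 and 0.557 CPM per kb), and the other genes lie near 0 in whole spleen.

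The 3 classes took different parts of the receptor RNA in the 2 fractions, by the same measure. In whole spleen, Adrb1 supplied 88.5 ± 10.1% (SD, n = 8) of the summed CPM per kb of the 8 genes, from 69.2% in sample 435 to 100% in sample 436. In the size-selected group the alpha-1, alpha-2 and beta genes took similar parts, 31.7 ± 3.96%, 31.9 ± 7.72% and 36.3 ± 9.71% (SD, n = 8). These shares rest on the exon lengths used and on Adra1d values that carry the column constants. In the authors' deposited table the mean size-selected TPM was 2.16 for Adra1b, 0.984 for Adra1d and 0.661 for Adra1a. For the alpha-2 genes there, it was 1.32 for Adra2c, 0.869 for Adra2a and 0.494 for Adra2b. The beta share was at most 52.6% in the size-selected samples and at least 69.2% in whole spleen, so that the groups did not overlap; no test was made of it. Within the size-selected group, the alpha-1 share was the steadiest, from 23.8% to 37.0%. Sample 436 had the largest alpha-2 share (48.1%) and the smallest beta share (19.1%), and sample 447 had the largest beta share (52.6%). The whole spleen shares rest on few counts, since the 5 genes Adra1b, Adra1d, Adra2b, Adra2c and Adrb3 had at most 3 counts in any sample there. The summed level itself ran from 2.16 CPM per kb in sample 408 to 13.0 in sample 427 in the size-selected group, and from 0.170 to 1.43 in whole spleen.

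**Figure D3:**
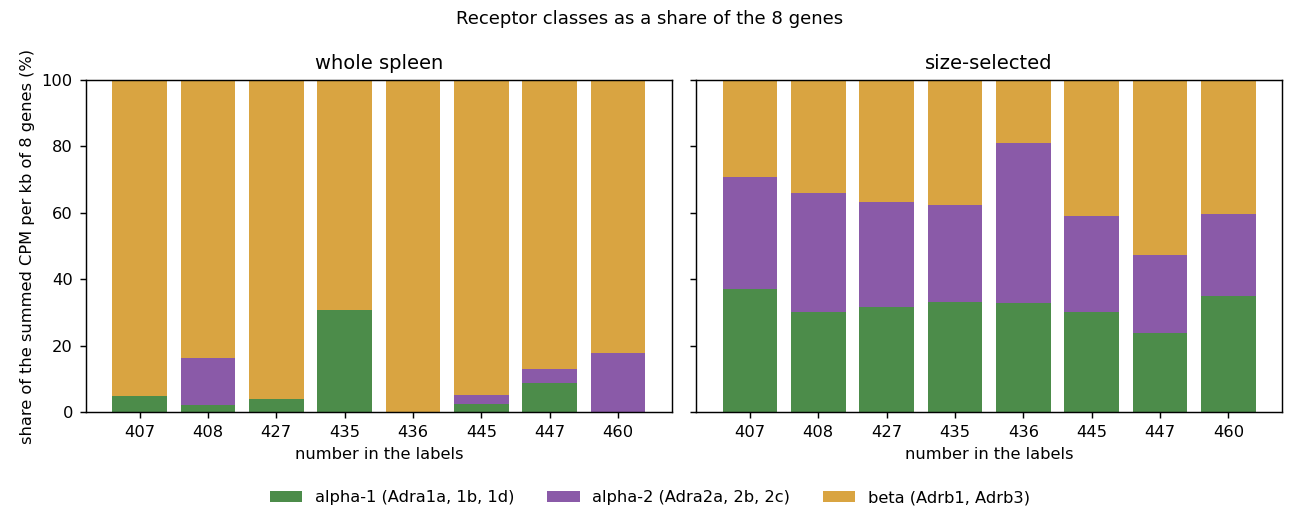
Share of the summed CPM per kb of the 8 genes taken by the alpha-1, alpha-2 and beta genes in each sample (bars, stacked to 100%), whole spleen on the left and size-selected on the right. The beta part, almost all Adrb1, makes up at least 69.2% of each whole spleen bar and at most 52.6% of each size-selected bar.

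Across the 8 size-selected samples, the 21 pairs among the 7 receptors other than Adrb3 all had a positive Pearson r, from 0.25 to 0.95. On log2 CPM, Adra1b followed Adra1d (Pearson r = 0.95, rho = 0.98) and Adra2c (r = 0.90, rho = 0.88), and Adra1a followed Adra2c (r = 0.91, rho = 0.95). Adrb1 had an r of 0.78 with Adra1d (rho = 0.36), 0.74 with Adra1b (rho = 0.38) and 0.25 with Adra2a (rho = 0.26), and its rho with the 6 other receptors lay between 0.07 and 0.38; Adra2a had an r of 0.38 with Adra1b (rho = 0.21). These are descriptions over 8 samples, which share their library's depth and its mixture of cells. Adra1a, Adra1b, Adra1d, Adra2b and Adrb1 were all lowest in sample 408. That library had the lowest smooth muscle (767), fibroblast (1001), endothelial (535), pericyte (190), mesothelial (19.5) and macrophage (1361) sums of the size-selected group. Its glial and megakaryocyte sums were not the lowest.

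The 4 receptors past the filter were compared with 6 cell type marker lists over the 8 size-selected samples, each list being the mean log2 CPM of its genes. None of the 24 relations had an adjusted p under 0.05 in the exact two-sided permutation test. By Pearson r the highest was that of Adra1b with smooth muscle, with r = 0.87 (exact permutation p = 0.00322, adjusted p = 0.0774) and rho = 0.76 (exact permutation p = 0.0368, adjusted p = 0.183). Without samples 408 and 447, farthest from the list's median, r was 0.60. Adra1b was nearly as close to the pericyte (r = 0.82, rho = 0.76), fibroblast (r = 0.78, rho = 0.83) and endothelial (r = 0.75, rho = 0.57) lists, with an r of 0.75, 0.85 and 0.58 without the 2 samples farthest from each list's median. Its rho with the fibroblast list was the highest of the 24 (exact permutation p = 0.0154, adjusted p = 0.183). Adra2a and the glial list had r = 0.85 (exact permutation p = 0.00821, adjusted p = 0.0859) and rho = 0.62 (exact permutation p = 0.115, adjusted p = 0.276), with r = 0.95 without samples 436 and 447. By rho, Adra2a was closest to the endothelial list (rho = 0.71, exact permutation p = 0.0576, adjusted p = 0.197), where r was 0.54. With the fibroblast list Adra2a had r = 0.71 and rho = 0.36, and r = -0.52 without samples 436 and 427. Adrb1 and the glial list had r = -0.01 (exact permutation p = 0.973), and r = 0.48 without samples 436 and 447. By r, Adrb1 was closest to the pericyte list (r = 0.81, rho = 0.67, adjusted exact permutation p of r = 0.0859) and the endothelial list (r = 0.80, rho = 0.62, adjusted exact permutation p of r = 0.0859), with an r of 0.67 and 0.75 without samples 408 and 435. By rho, it was closest to the mesothelial list (rho = 0.74, adjusted exact permutation p = 0.183; r = 0.61), where r was 0.16 without samples 408 and 445. All lists were measured in the same 8 libraries, so the 24 relations are not independent of each other.

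**Figure D4:**
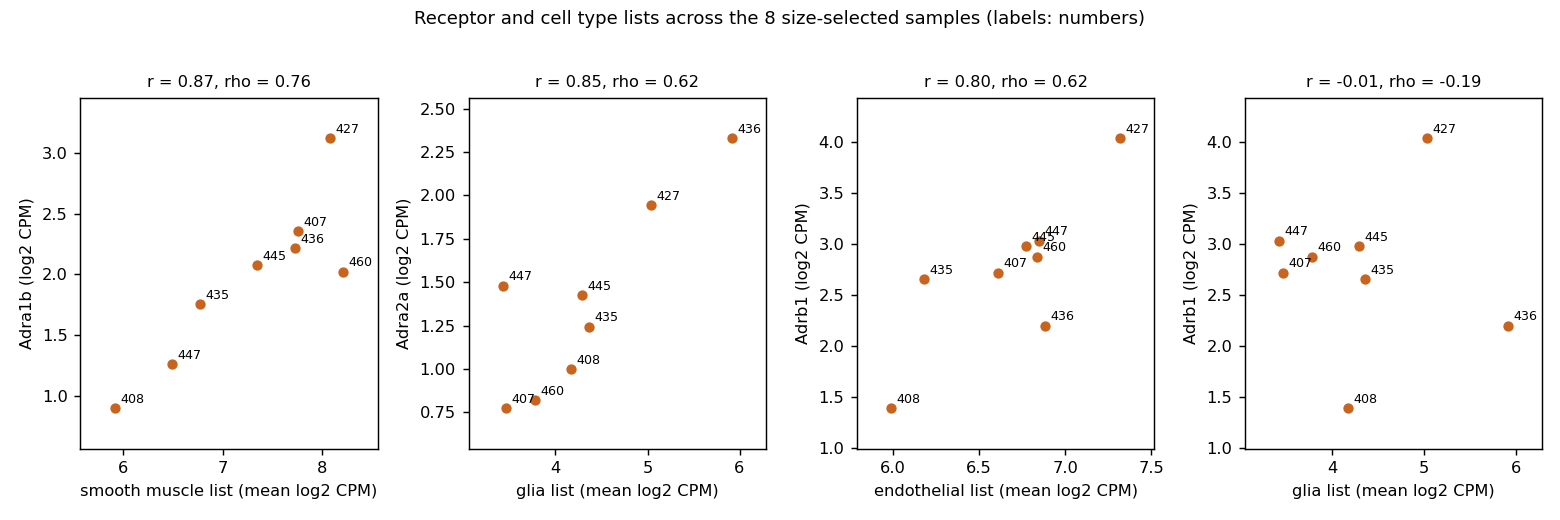
Log2 CPM of Adra1b, Adra2a and Adrb1 (vertical axes) against the mean log2 CPM of a cell type list (horizontal axes) in the 8 size-selected samples, each point labelled with its number. Adra1b has an r of 0.87 with the smooth muscle list, beside 0.82 with the pericyte and 0.78 with the fibroblast list, which are not drawn. Adra2a has an r of 0.85 with the glial list, beside 0.71 with the fibroblast list, which is not drawn. Adrb1 has an r of 0.80 with the endothelial and of -0.01 with the glial list. Without samples 436 and 447 the r of Adrb1 with the glial list is 0.48. None passes adjustment over 24 relations.

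Among 10099 genes whose log2 CPM averaged 3 or more, the 3 most like each of these receptors over the same 8 samples were named by a fixed rule. For Adra1b they were Ckb, a creatine kinase (r = 0.99), Myl9, a myosin light chain of smooth muscle (r = 0.99), and Chpt1 (r = 0.98). For Adra1a they were Cyb5d2 (r = 0.97), Foxc1, a transcription factor (r = 0.97), and Ramp1, a receptor partner for the peptide CGRP (r = 0.96). Adrb1 came with Amigo1, Rab4a and Dram2 (each r = 0.97), although rho with Rab4a was 0.67. Adra2a came with Igkv4-55, an immunoglobulin light chain segment (r = 0.96), Csf3, a granulocyte growth factor (r = 0.92), and Fabp4, a fatty acid binding protein (r = 0.92). Over 8 samples and so many genes, values of this size are a ranking only.

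Between the sexes, none of the receptors tested was called in either fraction; Adrb3, with no count in whole spleen, was not tested there. In the size-selected group, 4 females against 4 males, Adra2b had 1.96 ± 0.447 CPM in females and 1.18 ± 0.618 in males (SD, n = 4 each), a log2 difference of 0.72 (SE 0.43, edgeR adjusted p = 0.999). Its approximate 95% interval ran from -0.13 to 1.57 and leaves room for a difference in either direction. Adra2c went the other way, with 2.72 ± 2.45 CPM in females and 4.66 ± 4.00 in males and a log2 difference of -0.75 (SE 0.76, edgeR adjusted p = 0.999). In whole spleen, Adrb1 had 1.47 ± 0.914 CPM in females and 2.29 ± 1.66 in males (log2 difference -0.63, SE 0.58, edgeR adjusted p = 0.620). Among all genes, edgeR called 0.0397% of 15127 for sex in the size-selected group and 0.194% of 13383 (26 genes) in whole spleen. Without a filter, from which the values of Adrb3 and of the whole spleen receptors other than Adrb1 come, it called 0.026% of 26917 and 1.13% of 24143 (273 genes). DESeq2 called 521 genes in whole spleen and no receptor in either fraction. The interaction of sex and fraction was called for none of the 7 receptors it could test (edgeR adjusted p at least 0.999) and for 0% of 15760 genes by edgeR, of which 744 had an unadjusted p under 0.05; DESeq2 called 3 of all genes and no receptor.

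The machinery that carries the receptors' signal was described with 49 genes in 8 lists. Of 47 genes tested, 27 were called higher in the size-selected group, 9 were called lower and 11 were not called, beside 37.5% higher and 30.4% lower among all 14510 genes. Their median log2 fold change was 0.47, that of all genes 0.05. Up to 2 genes per list were named by a rule, those with the largest called change at a mean log2 CPM of at least 3. Other genes named below were picked with their values in view, because the counts are small.

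Of the 7 G protein alpha subunits, 5 were called higher and none lower. Gnaq and Gna11, which link alpha-1 receptors to phospholipase C, were both higher, Gna11 at 75.8 ± 22.8 against 19.1 ± 2.04 CPM (SD, n = 8; log2 fold change 1.99, SE 0.16) and Gnaq at 28.4 ± 5.49 against 14.2 ± 2.68 (1.00, SE 0.14). Of the inhibitory subunits that serve alpha-2 receptors, Gnai1 and Gnao1 were called higher, with log2 fold changes of 4.54 and 4.41, while Gnai2 and Gnai3 were not called. Gnas, the stimulatory subunit used by beta receptors, was higher by 0.40 on the log2 scale. The effectors of the alpha-1 class, the phospholipases C beta, included 3 genes called higher. Plcb1 was at 17.0 ± 7.42 against 1.01 ± 0.544 CPM (log2 fold change 4.07, SE 0.32) and Plcb3 at 55.8 ± 13.8 against 4.63 ± 1.86 (3.59, SE 0.24). Plcb4 (3.38) and the kinase gene Prkca were also called higher, Itpr2, an IP3 receptor, and Prkcb were called lower, and the other 3 of the list were not called. The call of Prkca was lost without number 447 (adjusted p = 0.0705) and without number 460 (0.0834).

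Adenylyl cyclases, which make cyclic AMP, showed 7 of 8 tested genes higher. Adcy1, below the abundance limit for naming, had a log2 fold change of 6.43, at 4.51 ± 1.66 against 0.0421 ± 0.0923 CPM (SD, n = 8). Adcy4 had 94.0 ± 27.5 against 2.71 ± 1.67 CPM (SD, n = 8; log2 fold change 5.13, SE 0.31), and Adcy5 28.1 ± 9.93 against 0.426 ± 0.346 (6.03, SE 0.40). Adcy7, the remaining one, was called lower at a log2 fold change of -0.66, but its size-selected values carry column constants, and with these divided out it was -0.14 (adjusted p = 0.362). In the protein kinase A list, Prkar1b (2.33, SE 0.23), Prkar2a (0.92, SE 0.15), Prkaca and Prkacb were called higher. Prkar1a was called lower (-0.26), a call lost with the constants divided out (adjusted p = 0.0559) and under scaling by library totals (0.238). Prkar2b was not called (0.25), but was called higher with the constants divided out (0.49, edgeR adjusted p = 0.0362). Of the phosphodiesterases that break cyclic AMP down, Pde3a, known from heart and vessel muscle, was at 49.7 ± 16.3 against 0.574 ± 0.394 CPM (6.42, SE 0.35), while Pde4d was lower (-0.52, SE 0.13) and 3 were not called. Of those not called, Pde3b (-0.47) was called lower in the fit with the constants divided out (-0.52, edgeR adjusted p = 0.0390). Crem, a nuclear target of the cyclic AMP pathway, was lower in 8 of 8 pairs, at 708 ± 153 against 1234 ± 137 CPM (-0.80, SE 0.13), and Creb1 was not called.

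Genes that switch the receptors off moved in both directions. Arrb1, an arrestin, was at 52.5 ± 14.9 against 18.2 ± 5.75 CPM (SD, n = 8; log2 fold change 1.52, SE 0.21), and the receptor kinase Grk3 at 16.3 ± 3.50 against 9.70 ± 2.44 (0.75, SE 0.17). Grk5 was also called higher, Grk2 and Grk6 were called lower, and Arrb2 was not called. Grk5 (0.69) lost its call without number 427, 436 or 447 (adjusted p from 0.0655 to 0.109). Grk6 (-0.36) lost its call without number 407, 427, 436, 445, 447 or 460 (adjusted p from 0.0503 to 0.164) and under library totals (0.241). Of the RGS proteins, which speed the shut-off of G proteins, Rgs5, a marker of pericytes, was at 40.3 ± 16.8 against 0.814 ± 1.04 CPM (5.67, SE 0.50) and Rgs4 at 34.2 ± 16.5 against 0.710 ± 0.458 (5.59, SE 0.39). Rgs16 was called higher and Rgs2 lower. Scaling by library totals alone moved the median log2 fold change of all genes from 0.05 to 0.18.

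**Figure D5:**
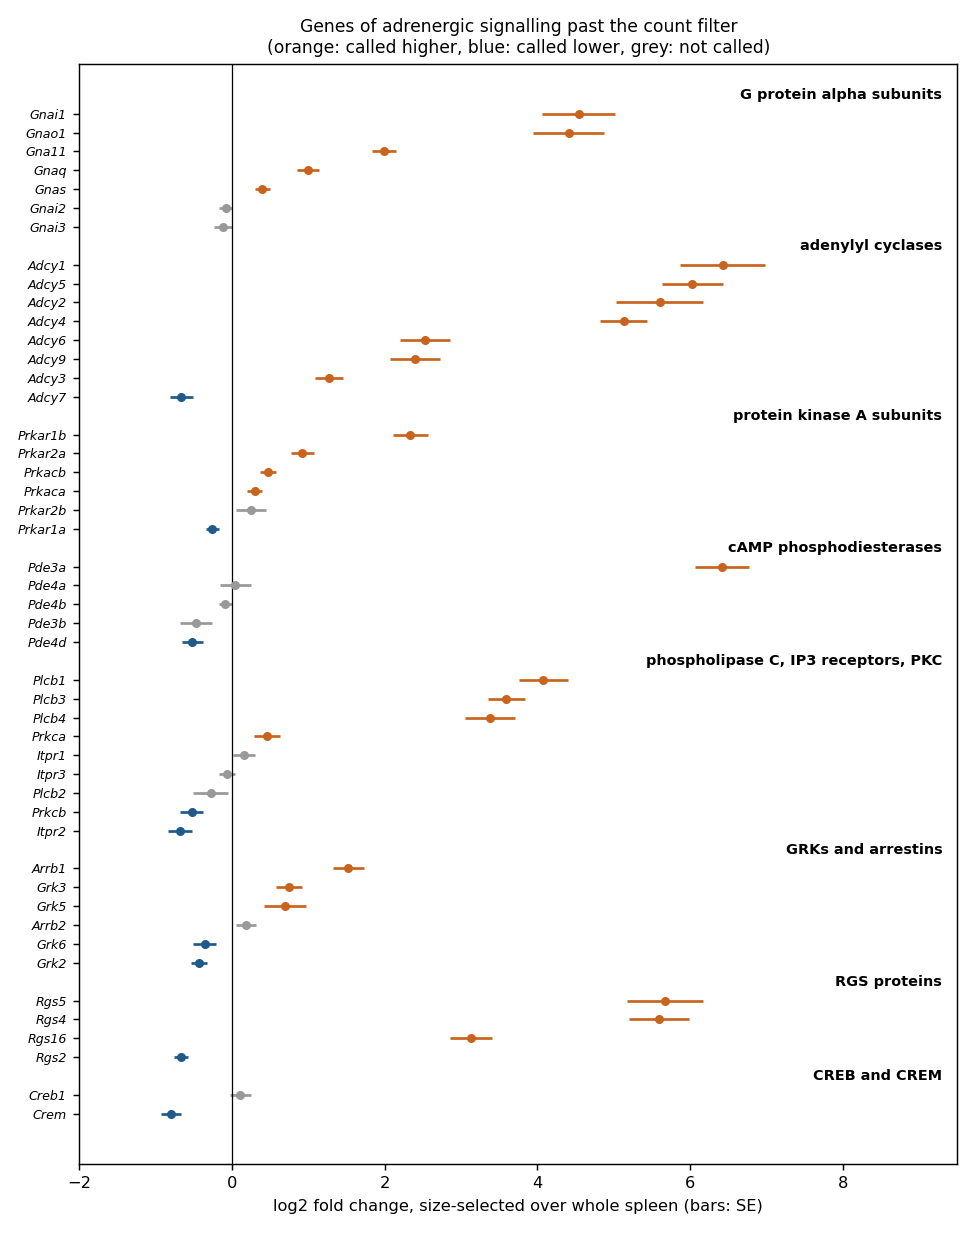
Log2 fold change of size-selected over whole spleen (horizontal axis, points with SE bars) for the 47 tested genes of 8 adrenergic signalling lists; orange genes were called higher, blue ones lower and grey ones not called. The called falls lie between -0.80 and -0.26, while Adcy1 (6.43), Pde3a (6.42) and Adcy5 (6.03) lie above 6 on the log2 scale.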

How the data were processed

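RNA was sequenced in 16 mouse spleen samples, 8 size-selected and 8 whole spleen, of which the same protocol text is given for all. Per the submitters' processing notes, Trim Galore, STAR, RSEM and DESeq were used with the mm10 genome. Versions and strand settings are not given in the sources used here. Estimated counts for each gene were deposited, totalling 12153770 to 19944440 per sample. In the size-selected columns the deposited values of 3898 genes are counts multiplied by up to 3 constants per column, found from the values and stated in no label or header. Among the receptors only Adra1d carries one. Per the file headers, the authors' comparison table holds a mean signal, a log2 fold change with its error, a test score, p-values with adjusted p-values, and mean TPM and FPKM per group. The signal, score and FPKM values deposited there were not used.

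Gene positions and exon lengths come from GENCODE M21 on GRCm38, which held 54809 of the 54838 identifiers. All 16 columns were mapped by their labels. Estimated counts were rounded and tested with edgeR 4.0.16 (R 4.3.3) by the quasi-likelihood F test, after filterByExpr (minimum count 10) and TMM scaling, with the fraction as the only term and Benjamini-Hochberg adjustment over all genes tested. A call is an adjusted p under 0.05. Sex was tested within each fraction, and its interaction with fraction over all samples. An SE was taken as the log2 fold change divided by the root of F. Log2 CPM uses a prior count of 2. Correlations were tested exactly over 40320 pairings. The fits were also run on simulated counts, and the outcome is not given here. Alternatives were RLE scaling, library totals, other filters, DESeq2 1.42.0, limma-voom (limma 3.58.1), sex as a covariate, the number as a block, restored counts and leaving out each number. The pairing comes from the numbers in the labels. Deviations of same-numbered samples from their group means correlated in every pair (r from 0.12 to 0.38, mean 0.21). Samples of different numbers had r from -0.33 to 0.23 (mean -0.03), so that the ranges overlapped.

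The receptors and gene lists were chosen with earlier results of these data known. Named pathway genes are up to 2 per list with the largest called change at a mean log2 CPM of at least 3. Similar genes are the 3 with the highest r to each receptor past the filter with a mean of at least 20 counts in the size-selected group. Alternatives that combine no filter with the block, restored counts or a left-out number were chosen after seeing the data, because 4 receptors lie outside the filter. Other genes of the family are not analysed here.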

Additional observations from a re-analysis of the deposited data

How the results depend on the processing

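No receptor turned its direction under an alternative that could be run for it. With restored counts, 2 pathway genes that were not called did, Gnai3 (from -0.12 to 0.25, adjusted p = 0.0714) and Pde4a (from 0.04 to -0.01). The number of receptors called was 4, against 8 without a filter, 1 with a mean count of at least 50, and 3 to 5 when each number was left out; Adra1a left the filter without number 435, 447 or 460, and Adra2b and Adra2c entered it without number 408 and 447 respectively. When each number was left out, genes called for the fraction went from 9855 to between 9249 and 9823, pathway genes called higher from 27 to between 25 and 27, and those called lower from 9 to between 8 and 10. Under the other alternatives they ran from 8301 to 12293, from 23 to 28 and from 7 to 10. Adrb3 lost its call with the replicate block (adjusted p = 0.133) and without number 445 (adjusted p = 0.0624), both without a filter. The block changed no other call among the receptors. For sex in whole spleen, 26 genes were called, 521 by DESeq2 and 273 without a filter; in the size-selected group, 6 and 22 by DESeq2. The interaction called 0 genes, 3 by DESeq2 and 3 with the replicate block. The cause of these differences was not tested. Depth limits the whole spleen values: 3 counts there are 0.192 to 0.244 CPM, so a receptor at 0 may lie anywhere under that level.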
